A study of Mus musculus with 68 samples.

Results

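Zfp503 (ENSMUSG00000039081) and Zfp703 (ENSMUSG00000085795) are a pair of related zinc finger genes, and their levels were followed through mouse pharyngeal arches from E9.0 to E10.5. They were taken by their Ensembl identifiers and are 2 of the 21948 genes in the deposited table. Pharyngeal arches are bulges of tissue that flank the embryo's foregut: PA1 gives rise to the jaws, and PA2, behind it, gives rise to the stapes and part of the hyoid. All 68 libraries come from embryos of the strain given as CBA/Ca/J x C57BL/10, either wildtype (WT) or labelled Hoxa2-/-. Of the 35 embryos, 33 have a library of both arches, and the rest, all WT, have PA1 only. In stage order (E9.0 first, E9.5, E10.0 and last E10.5), WT PA1 had 5, 5, 5 and 3 libraries, and WT PA2 had 4, 4, 5 and 3. With the label Hoxa2-/-, PA1 and PA2 each had 4, 5, 5 and 3. No treatment is given for any group, and the construction of the Hoxa2 allele is not given in the sources used here.

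Zfp503 (also called Nolz1) and Zfp703 (also called Zeppo1) encode the mouse members of the NET family of zinc finger proteins, relatives of the fly proteins Elbow and No ocelli. These proteins act in the nucleus as transcriptional repressors and are known to work with Groucho/TLE corepressors and histone deacetylases rather than by a well-defined DNA site of their own. Zfp503 is best known from the developing striatum and spinal motor neurons, and Zfp703 from the mammary epithelium and luminal breast cancer. Hoxa2, a homeobox transcription factor gene, is expressed in PA2 and not in PA1, and without it PA2 forms skeletal elements that resemble those of PA1.

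Because the genes are related, their sequences were compared first, to see whether reads of one could be counted for the other. In GRCm38, Zfp503 lies on the minus strand at chr14:21983959-21989601 with 3 exons, and Zfp703 lies on the plus strand at chr8:26977325-26981461 with 2 exons in its coding transcript. The coding parts are 1956 and 1782 bases long, and 71.5% of the 1708 aligned coding bases were identical. The most alike 120-base stretch is shown 5′ to 3′ for both genes, with the 21 bases that differ in capitals. It holds coding bases 278 to 397 of Zfp503 (chr14:21986450-21987256, minus strand) and 206 to 325 of Zfp703 (chr8:26977559-26978634, plus strand), and spans an intron in both.
Zfp503: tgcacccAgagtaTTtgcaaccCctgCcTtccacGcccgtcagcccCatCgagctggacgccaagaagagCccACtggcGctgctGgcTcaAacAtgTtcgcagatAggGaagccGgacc
Zfp703: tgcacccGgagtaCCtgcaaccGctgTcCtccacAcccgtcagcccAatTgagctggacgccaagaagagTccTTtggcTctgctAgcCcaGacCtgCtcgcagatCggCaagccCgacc
Even here 99 of 120 bases matched (82.5%), and the longest run of identical bases in both genes was 20. No 30-base word occurred in both. An antisense gene, Gm45371 (chr8:26977391-26980001, minus strand), overlaps Zfp703 and is not among the table's rows. Whether reads were counted by strand is not given in the sources used here, so Zfp703 values could include antisense reads.

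For Zfp503, the 250 bases upstream of the start (RefSeq table for GRCm38.p6, chr14:21989602-21989851, minus strand) are shown because Hoxa2 and its cofactors bind short sites of known letters.
Zfp503 upstream: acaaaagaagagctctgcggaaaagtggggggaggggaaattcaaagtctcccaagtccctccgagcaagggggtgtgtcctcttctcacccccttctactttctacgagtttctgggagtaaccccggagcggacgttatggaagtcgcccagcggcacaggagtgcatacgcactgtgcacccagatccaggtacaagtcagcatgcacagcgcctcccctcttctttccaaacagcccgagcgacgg
None of TGACAG (a Meis site), TGATTNAT (a Hox-Pbx site), TAATTA (a homeodomain site) or GGGCGG (a GC box) occurs in it on either strand. Of the 32851 promoters in that table, 15.9%, 2.83%, 4.84% and 32.7% hold these letters. Zfp703 was not matched in that table.

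Libraries held 8912251 to 20619153 reads. Zfp503 was read 21 to 330 times and Zfp703 28 to 483 times per library, the lowest both in PA1 labelled Hoxa2-/- at E9.0 replicate 3. Levels are given in the authors' CPM (counts scaled to a common library size), and differences as log2(CPM + 1), which understates the change of low genes. In PA2, Hoxa2 itself was not lower with the label Hoxa2-/-: in stage order, mean levels were 28.7, 60.7, 97.7 and 132.4 CPM with the label and 22.3, 40.7, 47.5 and 58.3 in WT. Hoxa2 RNA cannot check the label here, because neither the allele's construction nor the part of Hoxa2 that the reads cover is known. Libraries are therefore named by their label throughout. The libraries also divide in a way the labels do not name. Ski stood at 26.3 to 108 CPM in the 24 WT libraries of stages other than E10.0, at 9.52 to 15.5 in the 10 of WT E10.0 and at 9.28 to 22.8 in the 34 labelled Hoxa2-/-. The label and this division cannot be told apart except in E10.0 libraries, where WT and label share a side. Summed yolk sac or red cell markers exceeded 10 times the median of their arch and stage in 7 libraries. The 7 markers of arch mesenchyme were all detected in every group.

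Both genes were low, PA2-enriched transcripts in WT embryos. Zfp503 was highest in WT PA2 at E10.5, with a mean of 15.4 CPM ± 1.75 (SD, n = 3), and that group did not overlap the next, WT PA2 at E9.5 with 11.9 ± 0.960 (n = 4). The 4 WT PA2 groups held the top 4 places, and the other 12 groups ran from 8.06 ± 0.986 in WT PA1 at E10.5 (n = 3) to 3.43 ± 1.68 in PA1 labelled Hoxa2-/- at E9.0 (n = 4). From the WT PA2 group at E9.5 downward, each group overlapped its neighbour in that order. Zfp703 was highest in WT PA2 at E10.0, with 24.0 ± 4.62 (n = 5), followed by WT PA2 at E10.5 with 21.4 ± 2.35 (n = 3), which it overlapped. The third place, PA2 labelled Hoxa2-/- at E10.5 with 15.8 ± 1.95 (n = 3), lay apart from the second, and every later group overlapped its neighbour down to PA1 labelled Hoxa2-/- at E9.0 with 3.79 ± 1.18 (n = 4).

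**Figure D1:**
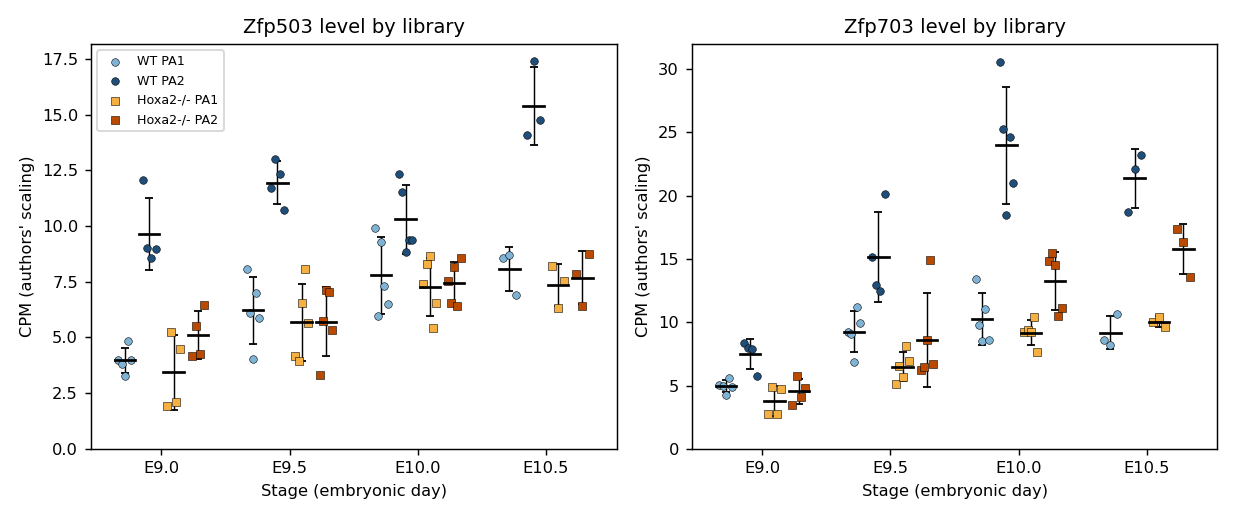
Level of Zfp503 (left) and Zfp703 (right) in CPM (y axis, from 0) by stage (x axis) in each of the 68 libraries; circles are WT, squares are labelled Hoxa2-/-, pale is PA1 and dark is PA2. Thick bars are group means and thin bars ± 1 SD; WT PA2 stands highest for both genes, up to 17.4 CPM for Zfp503 and 30.6 for Zfp703.

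The arch comparison asks how PA2 differed from PA1 of the same stage. In WT embryos Zfp503 was higher in PA2 at 3 of 4 stages and Zfp703 at all 4. At E9.0 Zfp503 stood at 12.1, 9.03, 8.55 and 8.98 CPM in PA2 and at 3.97, 3.80, 3.28, 4.83 and 3.98 in PA1. The arches did not overlap, and the log2 difference was 1.10 (SE 0.18, adjusted p = 8.4e-06, limma). At E9.5 it stood at 11.7, 13.0, 12.3 and 10.7 CPM in PA2 and at 8.06, 6.10, 4.03, 6.97 and 5.88 in PA1, again without overlap (log2 difference 0.87, SE 0.18, adjusted p = 0.00036). The E10.0 libraries overlapped, with 12.3, 11.5, 8.85, 9.37 and 9.39 CPM in PA2 and 9.91, 5.97, 9.28, 7.29 and 6.49 in PA1, and the difference of 0.37 (95% interval 0.03 to 0.72) did not pass (adjusted p = 0.22). At E10.5 the arches stood apart, at 14.1, 17.4 and 14.7 CPM in PA2 and 8.55, 8.70 and 6.92 in PA1. The log2 difference was 0.86 (SE 0.22, adjusted p = 0.023), and it missed the threshold on leaving out any library but PA2 replicate 1 (adjusted p up to 0.18). Of all 18428 genes tested, 10.2%, 12.7%, 4.51% and 0.868% were called higher in PA2 at the 4 stages in turn.

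Zfp703 had its largest WT arch differences at the later stages. At E9.0 it stood at 8.34, 7.96, 7.89 and 5.79 CPM in PA2 and 5.02, 4.93, 4.25, 5.59 and 4.86 in PA1. Each PA2 library lay above each PA1 library, with a log2 difference of 0.51 (SE 0.17, adjusted p = 0.026). Without PA2 replicate 1, 2 or 4 or PA1 replicate 3 this call was lost (adjusted p up to 0.075), and without the libraries high in yolk sac or red cell markers it was 0.44 (adjusted p = 0.12). At E9.5 levels were 15.2, 12.9, 12.4 and 20.2 CPM in PA2 and 9.20, 9.07, 6.83, 11.2 and 9.95 in PA1 (log2 difference 0.65, SE 0.17, adjusted p = 0.0035). By E10.0 PA2 had reached 30.6, 25.2, 18.5, 24.6 and 21.0 CPM, against 13.5, 9.81, 8.48, 11.0 and 8.59 in PA1 (1.15, SE 0.16, adjusted p = 3.1e-07). At E10.5 it stood at 18.7, 22.1 and 23.2 CPM against 8.60, 8.22 and 10.7 (log2 difference 1.14, SE 0.21, adjusted p = 0.00016). PA2 and PA1 did not overlap at any of the 4 stages. The share of all genes without overlap was not computed, and groups of 3 libraries can lie apart by chance. Lack of overlap is therefore given as description only, here and in the other comparisons. The change of the WT arch difference from E9.0 to E10.5 was 0.63 (95% interval 0.09 to 1.16) for Zfp703. It did not pass without the embryo as a block (adjusted p = 0.21) and passed with it (0.67, adjusted p = 0.021). Without the block 1.13% of all genes were called with a rising difference. In either direction 617 of the 18428 genes were called without the block and 1074 with it. For Zfp503 the change of the WT arch difference was -0.24 (95% interval -0.81 to 0.34, adjusted p = 0.78). With the label Hoxa2-/- the changes were 0.37 for Zfp703 (adjusted p = 0.44) and -0.47 for Zfp503 (adjusted p = 0.35), where 4.07% of all genes were called.

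With the label Hoxa2-/- the arch differences of both genes were smaller in value at each stage, and the test of that is the interaction given with the label comparison. Zfp503 stood at 4.18, 5.50, 4.26 and 6.46 CPM in PA2 and 1.91, 5.23, 2.09 and 4.48 in PA1 at E9.0. These overlapped, and the difference of 0.53 (SE 0.19, adjusted p = 0.037, where 12.1% of all genes were called higher) rested on single libraries: it missed the threshold without PA1 replicate 1 or 3 or PA2 replicate 2 or 4 (adjusted p up to 0.21). In edgeR's quasi-likelihood test it was 0.41 (adjusted p = 0.26), a fit that leaves out PA1 replicate 3. From E9.5 on, in stage order, the difference was 0.01 (95% interval -0.34 to 0.35), 0.04 (-0.31 to 0.38) and 0.05 (-0.39 to 0.50). Levels there were 3.31, 5.72, 7.11, 7.04 and 5.35 CPM in PA2 against 4.16, 3.95, 6.55, 8.09 and 5.64 in PA1 at E9.5. They were 7.55, 6.53, 8.16, 6.40 and 8.55 against 7.41, 8.29, 8.64, 5.43 and 6.53 at E10.0, and 7.86, 6.40 and 8.76 against 8.18, 6.34 and 7.53 at E10.5. The arches overlapped at each of these stages.

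Zfp703 with the label Hoxa2-/- passed between the arches from E9.5 on once the embryo was fitted as a block, and did not in the main fit. At E10.0 it also passed without the block when no other groups entered the fit. Its E10.0 levels were 14.8, 15.5, 14.5, 10.52 and 11.1 CPM in PA2 and 9.20, 9.36, 9.24, 10.4 and 7.68 in PA1, and by E10.5 they were 17.4, 16.3 and 13.6 against 10.05, 10.45 and 9.62. PA2 lay above PA1 without overlap at both stages. The log2 difference was 0.48 at E10.0 (SE 0.16, adjusted p = 0.073, and 0.0030 with the embryo block) and 0.60 at E10.5 (SE 0.21, adjusted p = 0.18, and 0.0094 with the block). At E9.5 the values were 6.21, 6.46, 8.63, 14.9 and 6.74 CPM in PA2 and 5.15, 6.56, 5.64, 8.09 and 6.93 in PA1, which overlapped (0.30, adjusted p = 0.24, and 0.045 with the block). PA2 was higher in 3 of those 5 embryos, and without PA2 replicate 4, the library at 14.9 CPM, the unblocked difference was 0.10 (adjusted p = 0.72). At E9.0 they were 3.49, 5.75, 4.07 and 4.80 against 2.75, 4.90, 2.79 and 4.73 (0.22, adjusted p = 0.39). Without the block 6.12%, 3.13% and 0.982% of all genes were called higher in PA2 from E9.5 on. The block raised the calls in either direction as well, from 1766, 779 and 252 of the 18428 genes to 2922, 1512 and 474.

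In the 33 embryos with both arches, the pairs can be read directly. Zfp503 was higher in PA2 in 15 of 16 WT embryos, with a median ratio of 1.88, and in 11 of 17 labelled Hoxa2-/-, with a median ratio of 1.052. For Zfp703 these were 16 of 16, with a median ratio of 2.101, and 15 of 17, with a median ratio of 1.45. Other genes moved with the arch as well. In WT embryos, 4 of 5 tested neuron markers were higher in PA2 at E9.5 and E10.0 (Elavl4, Isl1, Stmn2 and Tubb3), and 1 to 6 of 7 mesenchyme markers were lower. Of 8 epithelium markers, 4, 5, 4 and 2 were higher in stage order, with Pax1 and Pax9 at all 4 stages, and Foxa2 was lower at E9.5 and E10.0. Summed mesenchyme markers ran from 199 to 460 CPM in WT PA2 and from 393 to 863 in WT PA1. The summed neuron markers at E10.0 were 65.2 to 91.2 CPM in WT PA2 and 32.0 to 39.4 in WT PA1, and 68.1 to 81.6 against 33.6 to 41.8 with the label Hoxa2-/-. All 5 heart muscle markers were higher in PA2 at E9.0 under both labels, with sums of 51.3 to 828 CPM against 15.4 to 35.4 in WT, and all 6 red cell markers were higher in WT PA2 at E9.0. Of all 18428 genes, 10.2%, 12.7%, 4.51% and 0.868% were called higher in WT PA2 in stage order, and 12.1% with the label at E9.0. Calls in either direction between the WT arches numbered 3454, 4854, 1095 and 280. None of these markers was at 0 throughout a group, except Neurod1 of the neuron list in WT PA2 at E10.5. Their part in the arch differences of Zfp503 and Zfp703 was not tested. In bulk tissue, fewer cells of a type and less RNA per cell cannot be told apart.

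**Figure D2:**
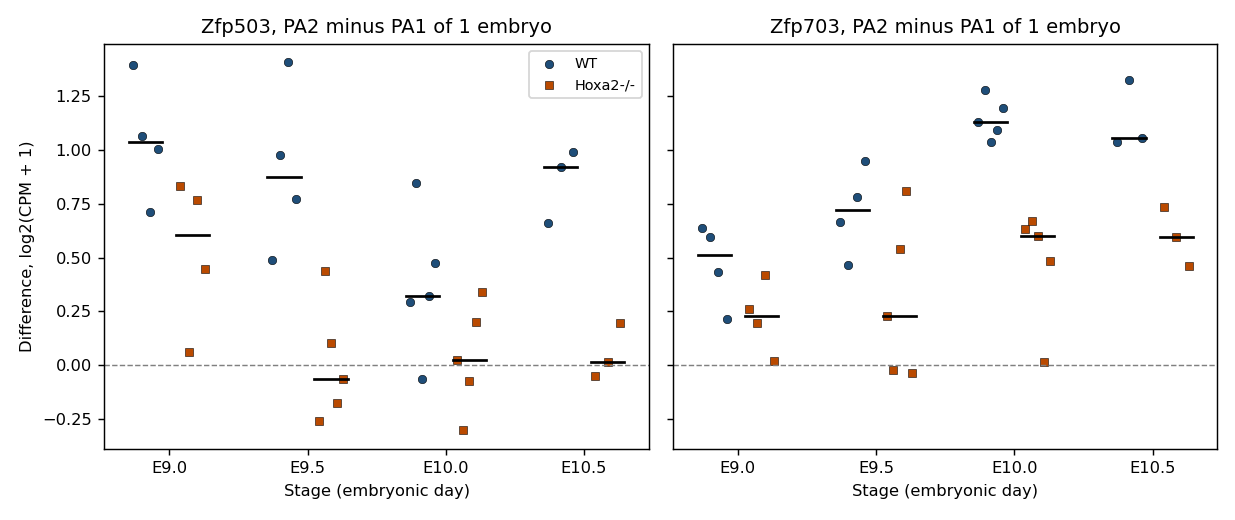
Difference between PA2 and PA1 of the same embryo on the log2(CPM + 1) scale (y axis) by stage (x axis) for Zfp503 (left) and Zfp703 (right); each point is 1 of 33 embryos, bars are medians, blue circles are WT and orange squares are labelled Hoxa2-/-. All 16 WT embryos lie above 0 for Zfp703, and 6 of the 17 embryos labelled Hoxa2-/- lie below 0 for Zfp503.

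The label comparison asks what differed between embryos labelled Hoxa2-/- and WT within 1 arch. It shares its libraries with the arch comparisons, so the results are not independent. In PA2 the levels of both genes given above were lower with the label at each stage, by a log2 difference that passed at 3 of 4 stages for each gene. Zfp503 with the label reached at most 6.46 CPM at E9.0, against at least 8.55 in WT, and the difference was -0.81 (SE 0.19, adjusted p = 0.0024). That call was lost when no other groups entered the fit (adjusted p = 0.18). At E9.5 the highest library with the label had 7.11 CPM and the lowest WT library 10.7 (-0.98, SE 0.18, adjusted p = 0.00046). At E10.5 these were 8.76 and 14.1 CPM (-0.92, SE 0.22, adjusted p = 0.0036). At E10.0, the stage where both labels lie on 1 side of the library division, the highest was 8.55 CPM and the lowest WT library 8.85. The groups did not overlap there either, but the difference of -0.42 (95% interval -0.76 to -0.07) did not pass (adjusted p = 0.57). Among all genes, 7.44%, 2.75%, 0.0651% and 3.85% were called lower at the 4 stages in turn.

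Zfp703 was called at E10.0 and not at E10.5. Its PA2 difference at E10.0 was -0.80 (SE 0.16, adjusted p = 0.0099), with the 5 libraries of the label at 10.52 to 15.5 CPM and the 5 WT libraries at 18.5 to 30.6. It kept this direction in each of the 9 alternative settings, from -0.86 to -0.66, but the call was lost on leaving out PA2 replicate 4 or 5 of the label or WT PA2 replicate 1 (adjusted p up to 0.085). It was also lost without the libraries high in yolk sac or red cell markers (-0.81, adjusted p = 0.067) and when no other groups entered the fit (adjusted p = 0.095). At E9.0 the difference was -0.63 (SE 0.18, adjusted p = 0.012) without overlap, and it missed the threshold without replicate 1 of the label (adjusted p = 0.054) and with no other groups in the fit (adjusted p = 0.26). At E9.5 it was -0.80 (SE 0.17, adjusted p = 0.0024) although replicate 4 of the label, at 14.9 CPM, lay within the WT range of 12.4 to 20.2. Without that replicate the difference was -1.0. With no other groups in the fit the E9.5 call was lost (adjusted p = 0.092). At E10.5 the groups did not overlap, and the difference of -0.42 (95% interval -0.83 to -0.003) did not pass (adjusted p = 0.20).

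In PA1, where Hoxa2 was at most 0.926 CPM, 1 of the 8 label differences passed. For Zfp503 they ran from -0.24 to -0.08 over the stages and none passed (adjusted p from 0.61 to 1). For Zfp703 the E9.5 difference passed, at -0.46 (SE 0.16, adjusted p = 0.031, where 12.2% of all genes were called lower), and was lost without label replicate 1 or 3 or WT replicate 1, 4 or 5 (adjusted p up to 0.099). The other stages gave -0.34 at E9.0 (adjusted p = 0.35), -0.14 at E10.0 (adjusted p = 1) and 0.13 at E10.5 (adjusted p = 0.85), where 1.25%, 0.00% and 1.55% of all genes were called lower. At E10.0 no gene passed in PA1 by limma or by edgeR, and 424 genes had an unadjusted limma p under 0.05. WT and label overlapped in PA1 at every stage for both genes.

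Whether the label difference itself differed between the arches was tested as an interaction. For Zfp503 the PA2 effect minus the PA1 effect was -0.57, -0.86 (95% interval -1.36 to -0.36), -0.34 and -0.81 over the 4 stages in turn. For Zfp703 it was -0.29, -0.34, -0.67 (95% interval -1.12 to -0.21) and -0.54. All 8 values were below 0 and none passed after adjustment over all genes (adjusted p from 0.82 to 1). They come from 2 genes in the same libraries, so they are not independent. None passed in the 9 alternative settings of limma or edgeR, among them the embryo block. The lowest adjusted p there was 0.19, for Zfp503 at E9.5 and for Zfp703 at E10.0. The smallest unadjusted p were 0.0011 for Zfp503 at E9.5 and 0.0046 for Zfp703 at E10.0. Of the whole table, 0.00%, 0.0109%, 0.0163% and 0.0271% of genes were called with a lower PA2 effect at the 4 stages. At E9.0 no gene passed by limma or by edgeR (3 did with the embryo block in limma), and 1083 had an unadjusted limma p under 0.05.

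Markers of other cell types were read beside these PA2 label differences. At E9.5 and E10.0, none of the tested mesenchyme, epithelium, neuron, hindbrain, endothelium, red cell, heart muscle, head muscle or yolk sac markers passed between the labels in PA2. Of all 18428 genes, 825 and 15 passed there in either direction. With so few calls, at E10.0 above all, the lack of a marker call cannot decide whether the make-up of the tissue differed. At E9.0, where 7.44% of all genes were called lower, 4 of 6 red cell markers were lower with the label. Their sums were 1805 to 3824 CPM with the label and 3283 to 63564 in WT, and the top value is WT PA2 replicate 2. Without that library and the others high in such markers, Zfp503 at E9.0 was still lower, by a log2 difference of -0.77 (adjusted p = 0.017), and Zfp703 was at -0.56 (adjusted p = 0.072). At E10.5, where 1904 of all genes passed in either direction, Dlx2 was higher and Pax9, Tubb3 and Myf5 were lower. Their part in the result was not tested.

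**Figure D3:**
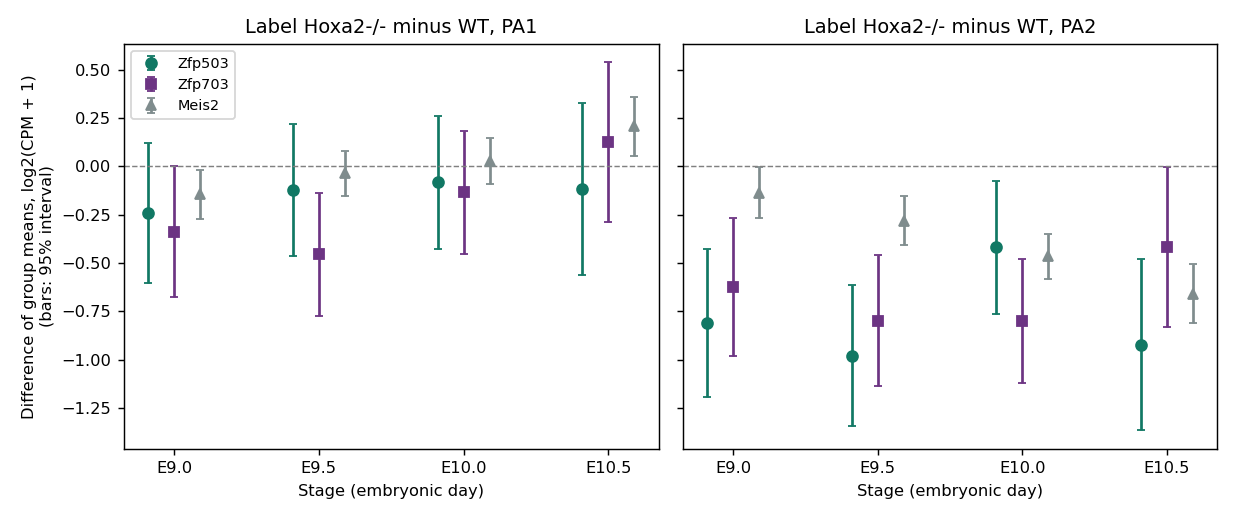
Difference between the label Hoxa2-/- and WT on the log2(CPM + 1) scale (y axis) by stage (x axis) in PA1 (left) and PA2 (right) for Zfp503 (circles), Zfp703 (squares) and Meis2 (triangles), with 95% intervals from the limma fit. The PA2 estimates of all 3 genes lie below 0 at each stage, from -0.98 to -0.14, and the label and the library division cannot be told apart at any stage but E10.0.

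Meis2, which encodes a homeobox cofactor of Hox proteins, gives a reference at a higher level. In PA2 it was lower with the label by a log2 difference of -0.28 at E9.5 (adjusted p = 0.0039), -0.47 at E10.0 (adjusted p = 6.3e-07) and -0.66 at E10.5 (adjusted p = 1.2e-08), and its E9.0 difference of -0.14 did not pass (adjusted p = 0.17). Mean Meis2 in PA2 at E10.0 was 115.3 CPM with the label and 160.1 in WT. Unlike for Zfp503 and Zfp703, its interaction (PA2 effect minus PA1 effect) passed at 2 stages. These were E10.0 (-0.49, adjusted p = 0.0013) and E10.5 (-0.87, adjusted p = 1.0e-06). At E9.0 and E9.5 the Meis2 interaction did not pass (0.01, adjusted p = 0.997, and -0.24, adjusted p = 0.93).

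Over the stages both genes rose. Zfp703 rose from E9.0 to E10.5 in all 4 combinations of label and arch, by a log2 difference of 0.77 in WT PA1 (adjusted p = 0.00051), 1.40 in WT PA2 (adjusted p = 4.0e-08), 1.24 in PA1 with the label (adjusted p = 1.1e-06) and 1.61 in PA2 with the label (adjusted p = 1.7e-09). Zfp503 rose by 0.87 in WT PA1 (adjusted p = 0.00030), 0.63 in WT PA2 (adjusted p = 0.013) and 0.99 in PA1 with the label (adjusted p = 0.00016). In PA2 with the label it went from a mean of 5.10 to 7.67 CPM, a difference of 0.52 that did not pass (adjusted p = 0.051). The WT PA2 rise of Zfp503 was 0.54 without E10.5 replicate 2 and then did not pass (adjusted p = 0.077). Without replicate 4 of E9.0 or replicate 2 of E10.5, the rise in PA2 with the label passed (adjusted p = 0.028 and 0.041). Between these stages 21.0% of all genes rose in WT PA1, 17.5% in WT PA2, 14.8% in PA1 and 15.8% in PA2 with the label.

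Of the 24 steps between neighbouring stages, 8 were called, and 7 of these lay between E9.0 and E10.0. Zfp703 in WT PA1 rose from E9.0 to E9.5 by 0.78 (adjusted p = 0.0019), and its later steps were 0.13 and -0.14, which did not pass. WT PA2 showed a rise of 0.92 from E9.0 to E9.5 (adjusted p = 0.00086) and one of 0.63 from E9.5 to E10.0 (adjusted p = 0.0074), and the last step was -0.15. With the replicate number as a block in limma, neither rise passed (adjusted p = 0.12 and 0.079). PA2 with the label showed rises of 0.74 (adjusted p = 0.0020) and 0.63 (adjusted p = 0.011) at the same steps. The second of these was lost without E9.5 replicate 1 or 2 or E10.0 replicate 2 (adjusted p up to 0.069). In PA1 with the label Zfp703 rose by 0.66 at the first step (adjusted p = 0.016), a call lost without E9.0 replicate 1 or 3 or E9.5 replicate 4 (adjusted p up to 0.14). Zfp503 rose at 2 of its 12 steps, by 0.64 from E9.0 to E9.5 in PA1 with the label (adjusted p = 0.038) and by 0.54 from E10.0 to E10.5 in WT PA2 (adjusted p = 0.040). Its first WT PA1 step, 0.52, did not pass (adjusted p = 0.055) but did without E9.5 replicate 2 or 3 (adjusted p = 0.049 and 0.034). Of the 2 calls, the first was lost without E9.0 replicate 1 or 3 or E9.5 replicate 3, 4 or 5 (adjusted p up to 0.29), and the second without any E10.5 library or E10.0 replicate 3, 4 or 5 (adjusted p up to 0.18). Of the 8 calls, 4 were also lost with no other groups in the fit: both in PA2 with the label for Zfp703 (adjusted p = 0.22 and 0.13) and the first step in PA1 with the label for Zfp703 (adjusted p = 0.16) and Zfp503 (adjusted p = 0.33). The latter pair were lost by edgeR too (adjusted p = 0.14 and 0.30) and with a pseudocount of 5 (adjusted p = 0.071 and 0.087). The Zfp503 step in WT PA2 was lost with a pseudocount of 0.25 (adjusted p = 0.059) and without the libraries high in yolk sac or red cell markers (adjusted p = 0.071). In stage order, the 3 steps were called as rises for 3.77%, 14.1% and 9.19% of all genes in WT PA1 and for 4.05%, 7.85% and 10.3% in WT PA2. With the label they were called for 1.86%, 1.87% and 0.195% in PA1 and for 9.98%, 1.74% and 0.0923% in PA2. WT steps into or out of E10.0 cross the library division, so stage and division cannot be told apart for them. This does not touch the WT step from E9.0 to E9.5 or the steps with the label.

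To set the genes beside each other, levels were divided by exon length, 4216 bases for Zfp503 and 3392 for Zfp703. Per kilobase Zfp703 was above Zfp503 in 65 of 68 libraries, with a median ratio of 1.61 and a range of 0.801 to 3.27. The 3 exceptions were PA2 at E9.0, namely WT replicates 1 and 5 and replicate 4 of the label. In WT PA2 at E9.0 mean CPM per kilobase was 2.29 ± 0.382 for Zfp503 and 2.21 ± 0.340 for Zfp703 (n = 4), and at E10.0 it was 2.44 ± 0.366 and 7.07 ± 1.36 (n = 5). The balance of the pair was near even in the first group and favoured Zfp703 in the second, a difference that was not tested. These groups lie on opposite sides of the library division, so stage and division cannot be told apart. In stage order, the median ratio in WT PA2 was 0.978, 1.43, 2.78 and 1.65.

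The log2 ratio of Zfp703 to Zfp503, on the log2(CPM + 1) scale, was computed in each library and compared between groups by exact two-sided permutation tests. In WT at E9.0 it was -0.33 ± 0.23 in PA2 and 0.26 ± 0.05 in PA1 (SD, n = 4 and 5, exact permutation p = 0.016). In WT at E10.0 the order was the opposite, with 1.14 ± 0.13 in PA2 and 0.36 ± 0.29 in PA1 (n = 5 each, exact permutation p = 0.0079, the smallest that 5 against 5 can give). Neither pair of groups overlapped, and after adjustment over the 16 such tests both gave 0.13, so none passed. The E10.0 test missed the threshold at the smallest p that its libraries allow. With groups this small, the adjusted result therefore cannot decide whether the ratio differed. Between the labels in PA2 the difference of the ratio was -0.38 at E10.0 (exact permutation p = 0.032, adjusted 0.17) and 0.51 at E10.5 (exact permutation p = 0.20, where 3 against 3 cannot go below 0.10). The other 12 tests had adjusted p from 0.22 to 0.79.

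**Figure D4:**
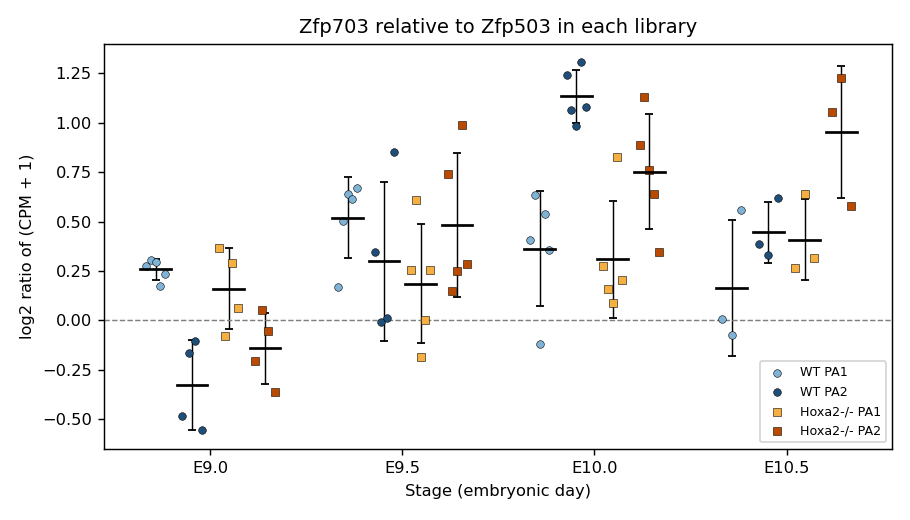
Log2 ratio of (CPM + 1) of Zfp703 to Zfp503 in each library (y axis) by stage (x axis), with symbols and shades as in the plot of levels; thick bars are means and thin bars ± 1 SD, and the dashed line marks equal values before division by length. WT PA2 lies below WT PA1 at E9.0 (means -0.33 and 0.26) and above it at E10.0 (1.14 and 0.36).

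Over the 16 group means of log2(CPM + 1) the pair had a Pearson r of 0.855, and 0.819 over the 8 WT and 0.907 over the 8 label means. These means share arches, stages and, for each group, the same libraries. Deviations of the 68 libraries from their group means had r = 0.508. Zfp703 was the 6th most alike gene to Zfp503 and Zfp503 the 17th to Zfp703, among 11348 genes with a symbol and a mean of at least 5 CPM in some group. The 5 most like Zfp503 were Mgst1 (r = 0.877), Pura (0.876), Prss23 (0.870), Cacna1c (0.865) and Sfrp2 (0.860). Those most like Zfp703 were Rab11fip2 (0.908), Sfrp2 (0.906), Snap91 (0.904), Zbed3 (0.896) and Jam2 (0.894). Sfrp2, which encodes a secreted Wnt modulator, is in both lists. At E10.5, Mgst1, a membrane glutathione transferase gene, had means of 50.1 CPM in WT PA2, 20.8 in WT PA1 and 19.2 in PA2 with the label. The others did not all share that pattern. In the same order Pura had 6.66, 6.02 and 5.76, and Prss23 had 30.7, 24.7 and 20.8. Cacna1c had 5.52, 5.10 and 3.39, and Sfrp2 had 28.8, 25.4 and 24.1. Rab11fip2 had 10.1, 4.76 and 7.01, and Snap91 had 8.11, 2.66 and 6.28. Zbed3 had 44.5, 38.7 and 44.1, and Jam2 had 7.085, 4.146 and 6.449.

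The known partners of NET proteins were read from a list of 14 corepressor and complex genes. In the WT arch comparison 3 were higher in PA2 and 2 lower at E9.0, and 3 higher and 2 lower at E9.5. Among all 18428 genes, 3454 and 4854 were called in either direction at these stages. None of the 14 passed at E10.0, where 1095 of all genes did, and 1 was lower at E10.5, where 280 did. The median log2 difference of the list lay between -0.02 and 0.05, against -0.02 to 0.01 for all genes. The higher ones at both early stages were Tle2, which encodes a Groucho corepressor, and the short or divergent family members Aes (also called Tle5) and Tle6. Aes had means of 50.9 CPM in PA2 and 21.1 in PA1 at E9.0 (log2 difference 1.23, adjusted p = 1.2e-09) and 98.9 against 97.7 at E10.5 (0.01, adjusted p = 1). Tle6 went from 8.11 CPM in PA2 against 1.87 in PA1 at E9.0 (1.64, adjusted p = 2.8e-08) to 2.00 against 4.12 at E10.5 (-0.78, adjusted p = 0.15). The change of the WT arch difference from E9.0 to E10.5 passed as a fall for Aes, Tle2 and Tle6.

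Some partners differed between the labels in PA2. Hdac3, a histone deacetylase gene, was higher with the label at E9.0 by 0.21 (adjusted p = 0.0031). None of the 14 passed at E10.0. At E10.5 Dcaf7, Phb2 and Tle4 were higher and Aes was lower, with Tle4 at means of 95.5 CPM against 54.6 (0.80, adjusted p = 0.00052) and Aes at 54.5 against 98.9 (-0.84, adjusted p = 0.00059). Of all genes, 2585, 825, 15 and 1904 were called in either direction between the labels in PA2 over the stages. For Tle4 the difference between the label effects in PA2 and PA1 at E10.5 also passed (1.08, adjusted p = 0.040). The list's median lay between 0.02 and 0.09 over the 4 stages, against 0.00 to 0.01 for all genes.

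A second list held 7 genes reported elsewhere as changed by Zfp503 or Zfp703: Cdh1, Tgfbr2, Gata3, Rarb, Aldh1a2, Isl1 and Isl2. None of the 7 passed between the labels in PA2 at any stage, with list medians from -0.06 to 0.16. Of all genes, 2585, 825, 15 and 1904 passed there in stage order. In PA1 Rarb, a retinoic acid receptor gene, was higher with the label at E9.5 and Aldh1a2, which encodes a retinoic acid synthesis enzyme, was lower at E10.5. Of the 18428 genes, 4343 and 562 were called in either direction in these 2 comparisons. Between the arches Isl1, a LIM homeobox gene, passed as higher in PA2 in each of the 8 comparisons. Its WT log2 difference was 2.11 at E9.0 (131.5 against 29.3 CPM, adjusted p = 5.0e-15) and 0.97 at E10.5 (62.2 against 31.0 CPM, adjusted p = 0.0017). The list did not share that pattern: in WT, 3, 4, 1 and 1 of the 7 were higher in PA2 in stage order. For all genes these shares were 10.2%, 12.7%, 4.51% and 0.868%. At WT E10.5 Aldh1a2, Isl2 and Rarb were lower in PA2, and the list median there was -0.95, against 0.39 at E9.0. With the label 4, 1, 1 and 1 were higher and none was lower, where 12.1%, 6.12%, 3.13% and 0.982% of all genes were called higher. Isl1 is also in the neuron list and Cdh1 in the epithelium list.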

How the data were processed

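RNA was measured in 68 libraries, grouped by the labels into 16 groups of 3 to 5, each library being 1 arch of 1 embryo. The labels' protocols describe manual dissection, flash freezing, TRIzol extraction, SMART-seq v4 cDNA and Nextera XT libraries. No molecular identifiers are described, so counting error understates the spread. Per the submitters' processing notes, bcl2fastq 2.18, TopHat2 2.1.1, R 3.3.2 and mm10 were used. The counting program, annotation and strand are not given in the sources used here. The authors deposited 1 table of scaled values (unit signal, close to CPM): column totals were 926298 to 1051959, and 100% of values were whole multiples of 1 read (tolerance 0.01 reads). Symbols came from GENCODE M21 (21921 of 21948 identifiers).

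Genes with at least 1 CPM in at least 3 libraries were kept (18428). limma 3.58.1 in R 4.3.3 was fitted on log2(CPM + 1) with 16 group means, a prior variance that follows the mean level, and two-sided p-values were adjusted by Benjamini-Hochberg over all kept genes, and adjusted p under 0.05 passed. Unnamed adjusted p-values are from this fit. It was also run on simulated counts of independent libraries, for the WT arch comparison at E10.0 only. That run holds neither correlated arches of 1 embryo nor the library division, so it does not test the fit under them. edgeR 4.0.16 ran on recovered reads of 67 libraries. Libraries of PA1 and PA2 with 1 number come from 1 embryo per the series text, and their deviations correlated (median r 0.35 over 33 pairs, 30 over 0.1). The rule for named genes took both genes, Hoxa2, Meis2, the listed genes and the 5 most alike genes. Not every result of the listed genes is reported here. The members and lists were chosen with earlier results of these data known. Alternatives were median-of-ratios scaling, other pseudocounts (0.25 and 5), a stricter filter (5 CPM) or none, a fit without other groups, a block, edgeR, and leaving out single libraries or the 7 high in yolk sac or red cell markers. Scaling moved the median of all genes by at most 0.022.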

Additional observations from a re-analysis of the deposited data

Results flagged for a closer look

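In 24 sets of values (each gene in each group of 4 or 5 libraries), 2 had a highest library standing apart by Dixon's criterion, which chance gives in about 1 of 20. For Zfp503, WT PA2 at E9.0 replicate 1 stood at 12.05 CPM, with the other 3 between 8.55 and 9.03, a gap of 0.863 of the group's range against a critical value of 0.829. For Zfp703, PA2 labelled Hoxa2-/- at E9.5 replicate 4 stood at 14.94 CPM, with the next at 8.63 and the lowest at 6.21, a gap of 0.722 against 0.71. In that library Hoxa2 stood at 102 CPM, against 48.6 to 53.5 in the other 4 of its group.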

How the results depend on the processing

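Results changed as follows. A pseudocount of 5 moved the Zfp503 arch difference with the label Hoxa2-/- at E9.0 to 0.28 (adjusted p 0.083) and the Zfp503 rise in PA2 with the label to 0.33 (0.044), and with a filter of 5 CPM that rise was 0.52 (0.046). With no other groups in the fit, these did not pass: Zfp503 between arches with the label at E9.0 (0.53, adjusted p 0.27), Zfp703 between labels in PA1 at E9.5 (-0.46, 0.075), Zfp503 between labels in PA2 at E9.0 (-0.81, 0.18), and Zfp703 between labels in PA2 at E9.0 (-0.63, 0.26), E9.5 (-0.80, 0.092) and E10.0 (-0.80, 0.095). The Zfp703 arch difference with the label at E10.0 passed in that fit (0.48, 0.033). Counts of called genes did not all fall in it: between labels in PA2 at E10.5 they went from 1904 to 2423. Stage steps lost under this and other settings are given with the steps.

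With the embryo as a replicate block, Zfp703 differed between arches with the label at E9.5 (0.30), E10.0 (0.48) and E10.5 (0.60), and its WT arch difference changed from E9.0 to E10.5 (0.67); the block changed no other arch call. Between labels or stages, numbers are shared only as numbers. With that replicate block the label values were -0.46 for Zfp703 in PA1 at E9.5 (adjusted p 0.085), -0.77 for Zfp503 (0.21) and -0.69 for Zfp703 (0.20) in PA2 at E9.0 and -0.80 for Zfp703 in PA2 at E10.0 (0.19), and the Zfp503 rise in WT PA2 was 0.54 (0.28). These stage steps did not pass with that block: Zfp703 in WT PA2 from E9.0 to E9.5 (1.02, adjusted p 0.12) and on to E10.0 (0.62, 0.079), Zfp703 with the label in PA2 at the same steps (0.80, 0.46, and 0.63, 0.22), the first step with the label in PA1 for Zfp703 (0.64, 0.16) and Zfp503 (0.63, 0.37), and Zfp503 in WT PA2 from E10.0 to E10.5 (0.47, 0.11). The Zfp503 steps from E10.0 to E10.5 were -0.030 in WT PA1 and -0.13 in PA1 with the label.

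Without libraries high in yolk sac or red cell markers, Zfp703 did not pass between WT arches at E9.0 (0.44) or between labels in PA2 at E9.0 (-0.56) and E10.0 (-0.81). Small Zfp503 values changed sign: arches with the label at E9.5 (-0.069) and E10.0 (-0.0032), labels in PA1 at E10.0 (0.0047), and steps with the label of -0.062 in PA1 and -0.0075 in PA2 from E10.0 to E10.5 and -0.025 in PA2 from E9.0 to E9.5. By edgeR the Zfp503 arch difference with the label at E9.0 was 0.41 (adjusted p 0.26). The cause was not tested for any of these.

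On leaving out 1 library at a time, ranges were as follows. For Zfp503 they were 0.76 to 0.92 between WT arches at E10.5, 0.35 to 0.72, -0.090 to 0.16, -0.049 to 0.097 and -0.039 to 0.16 between arches with the label at E9.0 to E10.5, -0.16 to 0.0047 between labels in PA1 at E10.0, 0.54 to 0.73 for the rise in WT PA2 and 0.43 to 0.63 for that in PA2 with the label. Its steps from E10.0 to E10.5 ran from -0.018 to 0.15 in WT PA1, from -0.062 to 0.11 in PA1 and from -0.052 to 0.15 in PA2 with the label. For Zfp703 they were 0.46 to 0.62 between WT arches at E9.0, -0.73 to -0.53 and -0.89 to -0.71 between labels in PA2 at E9.0 and E10.0, and -0.55 to -0.39 in PA1 at E9.5. The log2 ratio of the genes between labels in PA1 at E10.0 ran from -0.18 to 0.015. Counts of called genes moved too. Between labels in PA2 they went from 2585 at E9.0 to 15 with no other groups and 3 with the number as a block, from 825 at E9.5 to 478 and 299, and from 15 at E10.0 to 10 and 5 (23 with a pseudocount of 5, 8 without the libraries high in such markers). Between arches with the label, the 4527 genes of E9.0 became 1110 with no other groups, the 1766 of E9.5 became 870, or 2922 with the embryo block, and the 779 of E10.0 and 252 of E10.5 became 1512 and 474 with that block. Between labels in PA1, 384 genes at E9.0 became 610 with no other groups and 189 by edgeR, and 4343 at E9.5 became 1603 and, with the number as a block, 438. Over the step from E9.0 to E9.5, 3119 genes in PA2 with the label became 5 with no other groups and 0 with the number as a block, and 1241 in WT PA1 and 1231 in WT PA2 became 517 and 465, or 292 and 85 with the number as a block. From E9.5 to E10.0 the 811 genes in PA1 and 843 in PA2 with the label became 89 and 141, or 1 and 102, and 2910 in WT PA2 became 840 with the number as a block. Genes called in PA2 between E9.0 and E10.5 went from 6804 in WT and 5695 with the label to 1546 and 1498 with the number as a block. Between WT arches the embryo block gave 1747 genes at E10.0 against 1095 and 421 at E10.5 against 280 (186 with a filter of 5 CPM). At 21 reads, counting error limits single libraries.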
